A study of Zea mays with 4 samples.

Results

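The zma-miR395 family comprised 16 of the 161 known miRNA names in the deposited counts. These 16 names, zma-miR395a to zma-miR395p, were chosen by name and carry 4 of the 72 distinct mature sequences. The 4 libraries, 1 per tissue, came from plants of the inbred maize line B73. Pollinated silks (PS) were silks that extended about 5 cm beyond the bracts, received an excess of active pollen and were harvested 30 min later with the adhering pollen and tubes. Mature silks (MS) were silks of the same length, harvested without pollination. Germinated pollen (GP) was mature pollen cultured for 30 min in liquid medium, and mature pollen (MP) was shed from tassels, both with over 90% germination. The libraries held 5205129 clean reads in PS, 5775303 in MS, 10575042 in GP and 3638941 in MP. Expression is given as TPM, the reads of a sequence per 1000000 clean reads of its library.

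miR395 is the sulfate miRNA of plants. In Arabidopsis it accumulates when sulfate is scarce and directs cleavage of mRNAs for ATP sulfurylases, which activate sulfate for assimilation, and for a low-affinity sulfate transporter that moves sulfate between organs. Silk is the maize stigma and style, through which pollen tubes grow toward the ovule.

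The 4 mature sequences are shown because they share the seed and differ in reads and in predicted targets. They are written 5′ to 3′ as deposited, with T for U and with the seed, bases 2 to 8, in capitals.
miR395a/b/d/e/f/g/h/i/j/n/p: gTGAAGTGtttgggggaactc
miR395c/l/m: gTGAAGTGtttggaggaactc
miR395k: gTGAAGTGtttgaggaaactc
miR395o: gTGAAGTGtttgggtgaactc
All 4 are 21 nt long and have the seed TGAAGTG, which none of the other 254 known and predicted entries had. Counted from 1 at the 5′ end, 17 of the 21 positions were identical, and the variable ones lay between positions 13 and 16. Relative to the sequence shared by 11 names, called the major sequence below, miR395c/l/m carried G14A, miR395o carried G15T, and miR395k carried G13A and G16A.

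miR395 was found in the silk libraries alone. The major sequence had 324 reads in PS and 42 reads in MS, against 0 reads in GP and 0 reads in MP. This was 62.2 TPM in PS (exact Poisson 95% interval 55.7 to 69.4) and 7.27 TPM in MS (5.24 to 9.83), and the intervals did not overlap. The 3 minor sequences were detected in PS alone, and at few reads. miR395c/l/m had 5 reads in PS, or 0.961 TPM (0.312 to 2.24), and miR395k and miR395o had 1 read each. A count of 0 allows up to 3 reads, which is 0.519 TPM in MS, 0.284 TPM in GP and 0.824 TPM in MP. These intervals and floors describe the counting error of reads alone, because each tissue had 1 library. They do not cover the spread between plants or errors from PCR amplification.

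**Figure D1:**
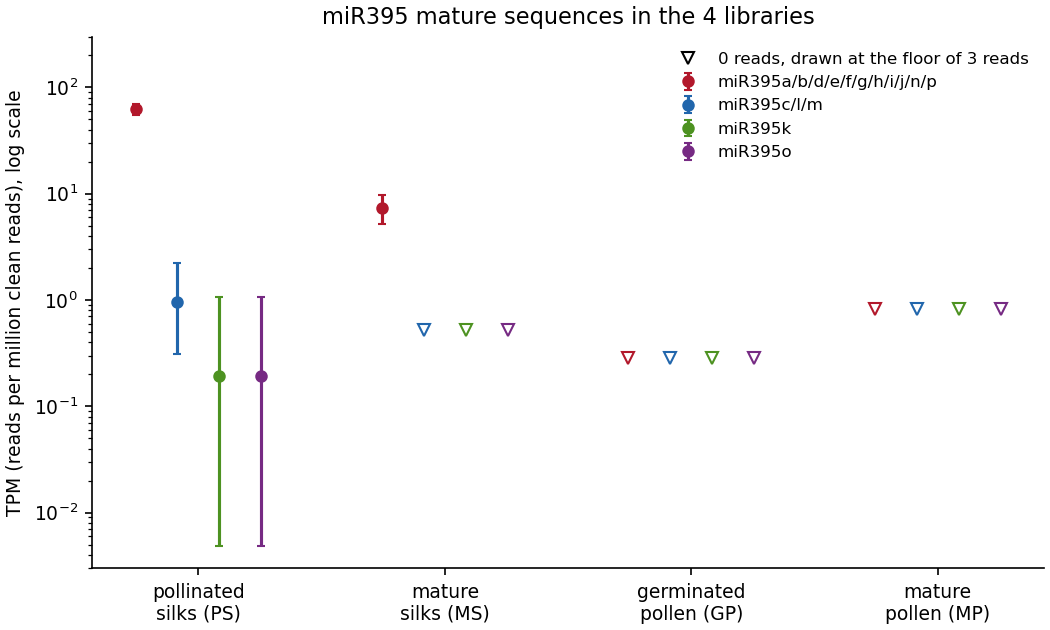
TPM of the 4 miR395 sequences in each library on a log scale, with exact Poisson 95% intervals; open triangles mark 0 reads, drawn at the floor of 3 reads. The major sequence stood at 62.2 TPM in PS and 7.27 TPM in MS, and all 4 sequences had 0 reads in both pollen libraries.

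The family was almost entirely 1 sequence. The major sequence had 97.9% of the 331 family reads in PS (exact Clopper-Pearson 95% interval 95.7% to 99.1%) and all 42 in MS. At the proportion seen in PS, 0.888 reads of minor sequences would be expected in MS, so the count of 0 there was uninformative (Fisher's exact test of the proportions, 2-sided, p = 1). Of the reads of all distinct known sequences, the family took 0.177% in PS (0.158% to 0.197%) and 0.0226% in MS (0.0163% to 0.0305%). The major sequence ranked 20 of the 62 known sequences detected in PS and 29 of the 57 detected in MS. It was thus a sequence of middle abundance in both silk libraries.

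The 11 names of the major sequence had nearly the same counts, because reads of a shared sequence are counted for each name. All 11 had 42 reads in MS. In PS zma-miR395b had 324 reads. The names zma-miR395d, zma-miR395f, zma-miR395g, zma-miR395i and zma-miR395n had 323 reads, and zma-miR395a, zma-miR395e, zma-miR395h, zma-miR395j and zma-miR395p had 322 reads. The counts include variants that differ by up to 2 bp in length. Names of 1 sequence therefore cannot be told apart and are not independent measurements.

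Precursor genes of 15 of the 16 names were found in the RefSeq gene table of Zm-B73-REFERENCE-NAM-5.0, and miR395j was not matched. They lay in 3 groups of neighbours with no other annotated gene between the members. The first group held the 8 genes of miR395d, f, g, e, i, h, b and a, in this order, and all 8 carry the major sequence. A second group held miR395k, l, m and c, and none of these 4 carries it. The last held miR395n, o and p, of which n and p carry the major sequence and o a minor one. Reads of a shared sequence are counted for each of its names, so the deposited counts do not show which group the reads of the major sequence came from. The group that holds no major sequence had 5 reads for its shared sequence and 1 read for miR395k, all in PS.

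**Figure D2:**
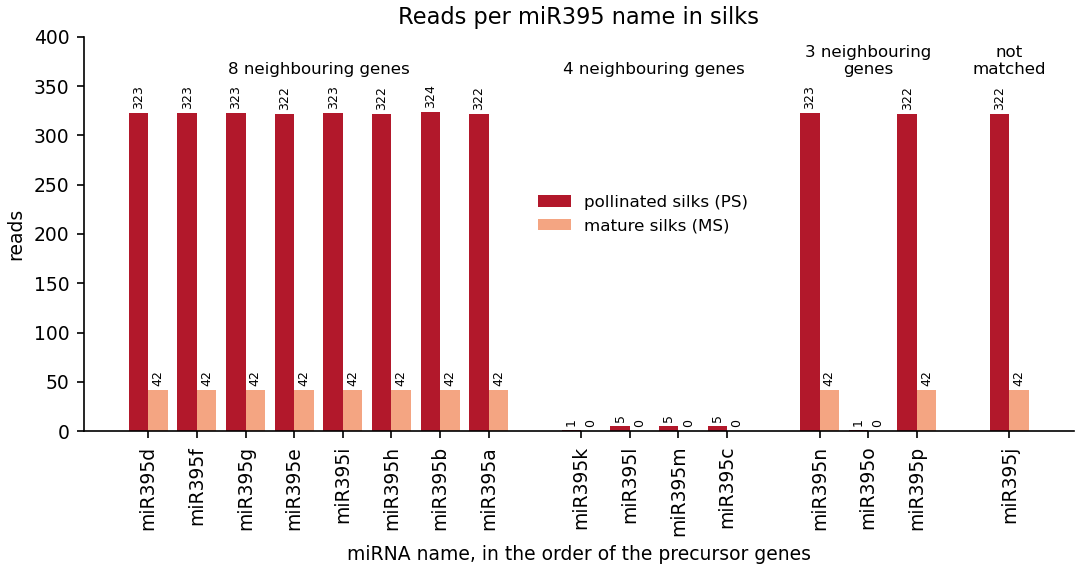
Reads per miR395 name in PS (dark bars) and MS (light bars), with names in the order of their precursor genes and gaps between groups of neighbouring genes. The 11 names of the major sequence had 322 to 324 reads in PS and 42 in MS, and the other 5 names had 1 or 5 reads in PS and 0 in MS.

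The comparison of PS with MS addressed which miRNAs differ between silks after and before pollination. The major miR395 sequence was 8.56-fold higher in PS (exact 95% interval 6.19 to 12.1), a log2 ratio of 3.10 (2.63 to 3.60), and the 2-sided Fisher's exact test of reads gave p = 8.65e-62, or 7.13e-61 after Benjamini-Hochberg adjustment over the 66 known sequences with reads in either library. With 1 library per tissue the test compares 2 libraries and not the conditions, and the difference has no replicate check in the sequencing data. Separately, the study measured its differentially expressed miRNAs by stem-loop real-time RT-PCR and reported patterns similar to sequencing. Those measurements were not re-analysed here. For miR395c/l/m, 5 reads in PS against 0 in MS gave a level at least 1.85-fold higher with 0 set to the floor of 3 reads, which leaves out the counting error of the 5 reads. The exact lower 95% limit of the ratio was 1.02 and p was 0.0239 (Fisher's exact test), above the limit of 0.01. For miR395k and miR395o, both counts were within the floor and no ratio is given. Summed over its 4 sequences, the family stood at 63.6 TPM in PS and 7.27 TPM in MS, 8.74-fold higher (6.33 to 12.4).

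At p under 0.01 and a log2 ratio over 1.5, 1 of the 4 miR395 sequences was higher in PS, and 9.09% of the 66 sequences were (6 of 66). By ratio alone, that is, a log2 ratio over 1.5, the share of all sequences was 10.6%. Counted per name, 11 of the 16 miR395 names passed, with log2 ratios of 3.09 to 3.10, against a share of 12.3% over all names (19 of 154). These 11 names made up 57.9% of the names higher in PS, but they are 1 of the 6 sequences. Among those 6, miR171b is miR171f without its last base. Length variants are included in the counts, so this pair may share reads. No miR395 sequence was lower, and 6.06% of all sequences were. The minor miR395 sequences had 0 reads in MS, so they could not have been called lower. miR395k and miR395o had too few reads to be called higher. Among the 44 sequences with at least 10 reads in PS or MS, the major sequence had the fourth largest log2 ratio. For the 53 sequences with reads in each of the silk libraries the median log2 ratio was 0.33, so that the major sequence lay 2.76 above it.

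**Figure D3:**
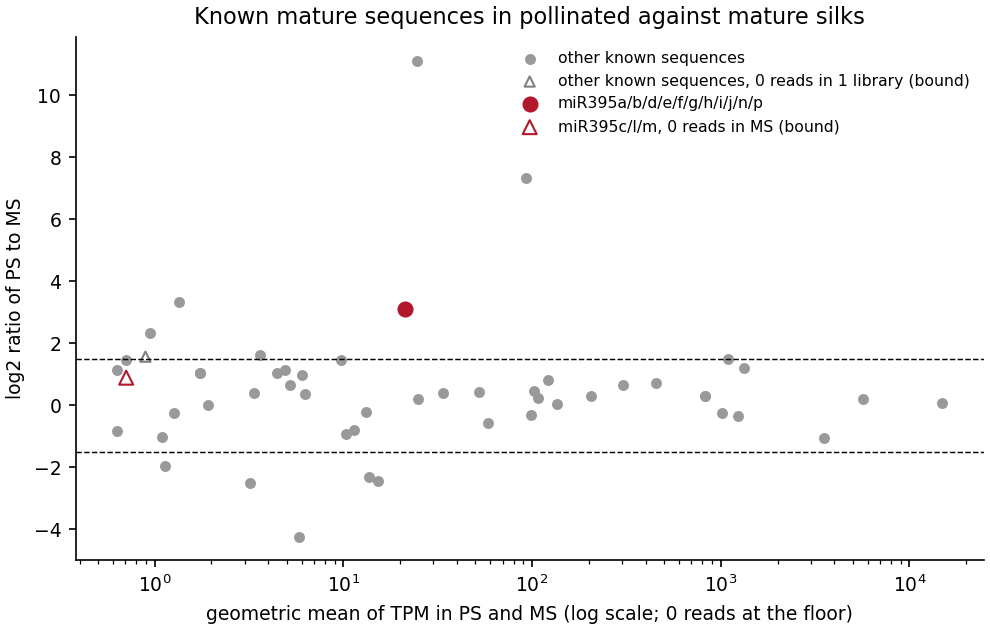
The log2 ratio of PS to MS of known mature sequences against their geometric mean TPM on a log scale; dashed lines mark log2 ratios of 1.5 in size, and open triangles are bounds where 1 library had 0 reads. The major miR395 sequence lay at 3.10, and the bound for miR395c/l/m was 0.89.

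Adhering pollen was harvested with PS, and its part in the comparison was not tested. GP, the library of germinated pollen, had 0 reads of any miR395 sequence at the largest depth of the 4 libraries. However, known sequences made up 0.417% of clean reads in GP, against 3.60% in PS. To describe pollen-type sequences in PS, 22 known or predicted sequences were summed that reached 5 TPM in GP or MP and exceeded their own MS level there by 5 times or more. They stood at 6.92 TPM in PS and 22.0 TPM in MS, against 574 TPM in GP and 276 TPM in MP. The choice itself fixed the high values in pollen and the low values in MS, and only the PS values were not used in it. A single member, miR159h/i, held 3696 of the 6073 reads in GP, with 7 reads in PS and 44 in MS. Without it the other 21 stood at 5.57 TPM in PS and 14.4 TPM in MS, against 225 TPM in GP and 164 TPM in MP. In PS 15 of the 22 had 0 reads.

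When libraries were scaled by clean reads, the major sequence was higher in silks than in pollen in both comparisons, as were most known sequences. In PS it stood at 62.2 TPM against 0 reads in GP, 219-fold higher with 0 set to the floor of 3 reads. The exact lower 95% limit was 177 (2-sided Fisher's exact test of reads, p = 8.56e-157, adjusted p = 3.11e-156). In MS it stood at 7.27 TPM against 0 reads in MP, 8.82-fold higher by the same floor. The exact lower limit was 6.86 (Fisher's exact test, p = 1.65e-09, adjusted p = 3.3e-09). At its TPM in MS, 76.9 reads would be expected in GP and 26.5 in MP, when libraries are scaled by clean reads. However, known sequences made up 3.22% of clean reads in MS, 0.417% in GP and 0.546% in MP. As a share of known reads, the upper 95% limit for the family was 0.00836% in GP and 0.0186% in MP. The limit for MP overlaps the interval in MS, 0.0163% to 0.0305%. miR395c/l/m, with 5 reads in PS and 0 in GP, was 3.39-fold higher by the floor. Its exact lower limit was 1.86 (Fisher's exact test, p = 0.0039, adjusted p = 0.00612). Folds by the floor leave out the counting error of the silk reads, which the exact limits include. Over all known sequences, 59.4% were higher in PS than in GP by the same limits and 53.3% were higher in MS than in MP. The bound for MS against MP was a log2 ratio of 3.14. The median ratio of the 35 sequences found in both was 3.57. That median leaves out sequences with 0 reads in MP, so a bound has no rank against it. Under TMM scaling the bound for MS against MP was -0.22. With 0 reads in MP, a bound below 0 gives no direction, so the call rests on scaling by clean reads. For PS against GP the bound of 7.78 lay above the median of 3.13 of 39 sequences. TMM scaling shifted the log2 ratios of PS to GP by -3.09 and brought that bound to 4.69. The bound of miR395c/l/m, a log2 ratio of 1.76, is smaller than this shift, so its call rests on scaling by clean reads. GP and MP both had 0 reads of every miR395 sequence, so no ratio between them can be given.

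The deposited target lists of miR395 hold 3 genes on 5 transcripts, predicted from sequence and carrying no read counts. GRMZM2G042171, named sfp3 in RefSeq, is described in the target list of the study as a sulfate transporter, a protein that carries sulfate into cells. Its site lies at positions 305 to 325 of transcript T01, and it is listed for all 16 names. GRMZM2G051270 is described as an ATP sulfurylase, the enzyme that activates sulfate in the first step of assimilation. Its sites lie at positions 616 to 636 of T01, 145 to 165 of T02 and 528 to 548 of T03, and they are listed for 14 names. GRMZM2G149952, described as a pseudouridine synthase, an RNA-modifying enzyme, has a site at positions 453 to 473 of T01 that is listed for 15 names. Each site is 21 nt long. None of the 3 genes is listed for another miRNA of the deposited data, known or predicted.

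The lists were shorter for miR395o and miR395k, but not for miR395c/l/m. The major sequence and miR395c/l/m, which carries G14A, both have all 3 genes. miR395o, with G15T, lacks the ATP sulfurylase gene, and miR395k, with G13A and G16A, has the sulfate transporter gene alone. Among the 27 known families, 18 have more predicted target genes than miR395 and 5 have fewer, with a median of 5 genes per family.

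Other miRNAs related to mineral nutrition were compared with miR395 in silks. miR399 and miR827 act in phosphate homeostasis, and miR397, miR398, miR408 and, in grasses, miR528 are copper miRNAs that target mRNAs of copper proteins. These 6 families have 18 names and 11 distinct sequences, of which 10 had reads in PS or MS. Of these 10, 1 was higher in PS by the limits above and 0 were lower, and the median log2 ratio of the 6 with at least 10 reads in a silk library was 0.60. The 5 sequences below 10 reads in both silk libraries were miR397b, miR399b, miR399d, miR399f and miR399g, with at most 4 reads in PS and 9 in MS.

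The sequence of miR528a/b was the one that passed, with 33 reads in PS and 12 in MS, against 1 in GP and 3 in MP. Its log2 ratio of PS to MS was 1.61 (exact 95% interval 0.62 to 2.70). miR827 had 10530 reads in PS and 5057 in MS, a log2 ratio of 1.21 (1.16 to 1.26), and miR408/b had 837 and 529 reads in the same order, a ratio of 0.81 (0.65 to 0.97). Both were thus more abundant than miR395 and below the limit of 1.5. miR399a/c/h, with 20 reads in PS and 17 in MS, and miR398a/b, with 10 and 11, had log2 ratios of 0.38 (-0.62 to 1.41) and 0.01 (-1.38 to 1.39), whose intervals include 0. miR399e/i/j had 39 reads in PS and 83 in MS, a log2 ratio of -0.94 (-1.53 to -0.37).

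The difference in ratio between miR395 and each of these 6 was tested directly, which does not depend on library scaling. The PS to MS ratio of the major miR395 sequence was 2.81 times that of miR528a/b (exact 95% interval 1.22 to 6.09), 3.70 times that of miR827 (2.68 to 5.25) and 4.88 times that of miR408/b (3.45 to 7.02). It was 6.56 times that of miR399a/c/h (2.95 to 14.3), 8.49 times that of miR398a/b (3.04 to 23.6) and 16.4 times that of miR399e/i/j (9.69 to 27.9). All 6 differences passed in 2-sided Fisher's exact tests of reads, with adjusted p from 1.39e-31 to 0.00869 over the 6 pairs. With 1 library per tissue, these tests compare reads of the PS and MS libraries and not the conditions. They were added after seeing the data.

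**Figure D4:**
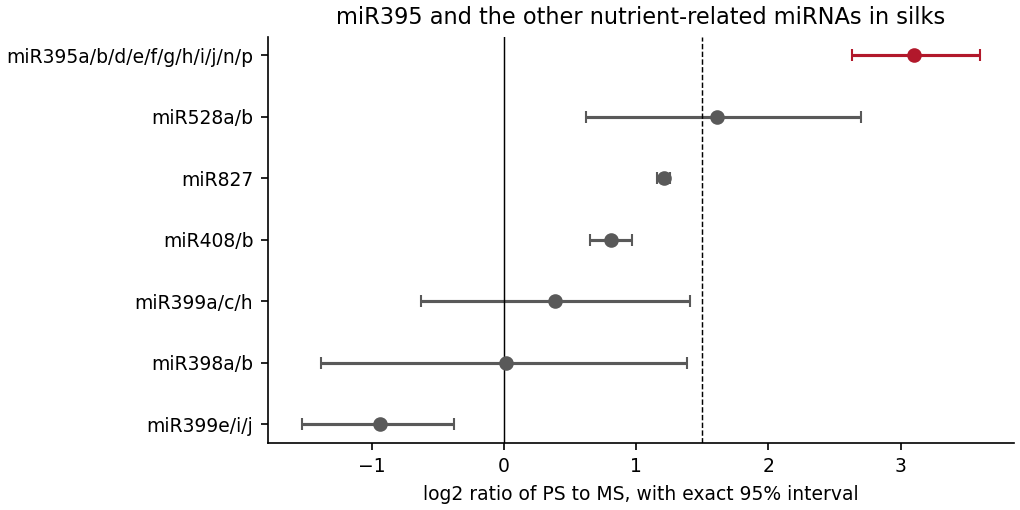
The log2 ratio of PS to MS for the major miR395 sequence and the 6 other nutrient-related sequences with at least 10 reads in a silk library, with exact 95% intervals; the dashed line marks 1.5. The ratio of miR395 was 3.10, and those of the others ran from -0.94 for miR399e/i/j to 1.61 for miR528a/b.

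The sequences with the profile most like that of miR395 were found by comparing how the TPM of a sequence was distributed over the 4 libraries. The major sequence had 89.5% of its summed TPM in PS and 10.5% in MS. Likeness was measured as 0.5 times the summed absolute differences of these percentages, over the 129 other distinct sequences with at least 10 reads, where the median difference was 52.6%. The nearest were a pair of predicted 24-nt miRNAs, shown with bases 2 to 8 in capitals since they have no family name.
predicted 24 nt (1): aAAACCCCctgacgcagcaccgtt
predicted 24 nt (2): aGCACCGTtggatatggagggtgt
The first differed by 0.267% and had 15 reads in PS and 2 in MS. The second differed by 0.874% and had 34 reads in PS and 4 in MS. Neither had reads in pollen, and neither has the seed of miR395.

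Of known miRNAs, miR171c and miR171b, of a family that targets GRAS transcription factor genes, and miR169f/g/h, of a family that targets NF-YA genes, were the nearest. miR171c differed by 6.23%, with 9 reads in PS and 2 in MS. miR169f/g/h differed by 9.04%, with 18 reads in PS and 2 in MS, against 4 in GP. miR171b differed by 9.85%, with 6126 reads in PS and 42 in MS, against 2 in GP. Its log2 ratio of PS to MS was 7.34, against 3.10 for the major miR395 sequence. A small difference in shares can thus go with a large difference in ratio. Apart from miR171b these profiles rest on 38 reads or fewer, and over 4 libraries the likeness is a description only.

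**Figure D5:**
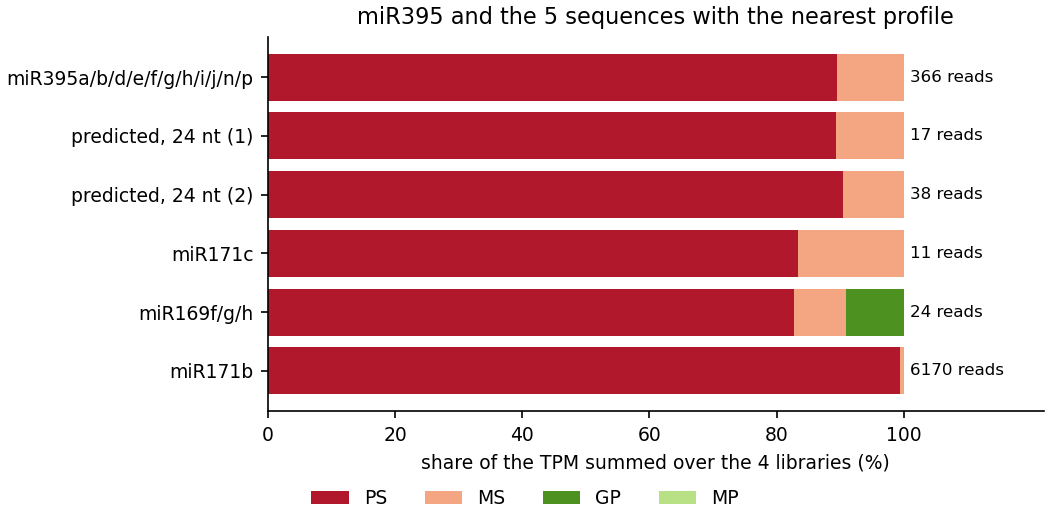
Share of the TPM summed over the 4 libraries that fell in PS, MS, GP and MP, for the major miR395 sequence and the 5 sequences with the nearest profile, with their total reads beside the bars. The major sequence had 89.5% in PS and 10.5% in MS, and of the 5 only miR169f/g/h had a visible part in GP.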

How the data were processed

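Small RNA of 4 maize tissues was sequenced on a Solexa platform by the authors, with 1 library each. The authors removed adaptors and low-quality reads, aligned clean reads to the B73 genome (RefGen_2v) by SOAP, discarded reads of rRNAs, tRNAs and snoRNAs, and searched miRBase by Blastn with what remained. Deposited counts give whole reads for each miRNA name, with length variants of up to 2 bp added. The deposited TPM values are counts per 1000000 clean reads, not scaled by length. The authors' chi-square p-values were not used, and 0 columns of values per sample were left out otherwise.

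The clean reads of each library were recovered from counts and TPM. Each distinct sequence was given the counts of its name with the most reads. Libraries were compared with 2-sided Fisher's exact tests (scipy 1.17.1) on the counts, with Benjamini-Hochberg adjustment over the known sequences with reads in the pair. A sequence was called where p was below 0.01 and its log2 ratio exceeded 1.5 in either direction. A count of 0 was set to 3 reads, giving a bound. Ratio intervals are exact. No model with replicates could be fitted, and edgeR 4.0.16 (TMM) and DESeq2 1.42.0 (median ratio) gave scaling factors only. Alternatives covered scaling, the name counted, the family sum, the floor, a filter of 10 reads and the chi-square test.

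The members and lists were chosen with earlier results of these data known. Named were all miR395 sequences and their predicted targets, the 5 sequences with the nearest profile and the other nutrient families. The direct tests of differences between ratios were added after seeing the data. miRNA sequences come from the deposited data, and gene names and neighbours from RefSeq for Zm-B73-REFERENCE-NAM-5.0, in which all 3 target genes were found. Its coordinates are not given, since the build differs. Pairing with target sites was not analysed here.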

Additional observations from a re-analysis of the deposited data

How the results depend on the processing

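The higher level of the major miR395 sequence in PS than in MS kept its direction and its side of the limits under all 6 alternatives, with log2 ratios of 2.79 to 3.13, and PS against GP did so under all 7, with bounds of 4.67 to 9.36. MS against MP did so under 4 of 7. Those 4 kept 42 and 0 reads and scaling by clean reads, so the bound could not fall under them. Under every other scaling it missed the limits. For PS against MS and PS against GP, the chi-square test, the name counted and the family sum also used nearly the same reads. A lower floor can only raise a bound, so the scalings alone could have moved these results. The bound for MS against MP was 3.14 by clean reads and 0.58 when scaled to the reads of distinct known sequences. It was -0.22 under TMM and -0.39 under the median ratio. In the same order, these scalings shift MS against MP by -2.56, -3.36 and -3.53. With 0 reads in MP, a bound below 0 gives no direction. The number of known sequences past the limits in PS against MS was 10 by clean reads, 6 higher and 4 lower. It was 8 or 9 under the other scalings and with at least 10 reads required, 10 by the chi-square test and 30 per name. The part of these that was higher was 60.0%, against 44.4% under the median ratio and 50.0% under TMM. The major sequence was higher in each of these settings. No paired analysis was possible because each tissue had 1 library, and no replicate could be left out. Depth limits the minor sequences, which had at most 5 reads.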

Other observations

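Known sequences with reads in silks and 0 reads in both pollen libraries numbered 21 of the 72, or 29.2%, and all 4 miR395 sequences were among them. Of these, miR395c/l/m had 5 reads in silks and miR395k and miR395o had 1 each, so their absence from pollen rests on few reads. Counted per name, the known miRNAs without pollen reads were 44 of 161, and 16 of these 44, or 36.4%, were miR395. Among the 44 sequences with at least 10 reads in a silk library, 10 had 0 reads in both pollen libraries. In PS the major miR395 sequence was the most abundant of these 10, with 324 reads, followed by miR164f with 247 and miR166j/k/n with 200. In MS it was the fifth, with 42 reads, and miR164f had 412, miR166j/k/n 170, miR399e/i/j 83 and miR164h 82. The log2 ratios of PS to MS of the other 9 ran from -0.94 for miR399e/i/j to 1.04 for miR171a and miR171n, against 3.10 for miR395. These values are a description, since each tissue had 1 library.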
